A study of Homo sapiens with 13 samples.

Results

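Ribosome footprints were compared between MDA-MB-231 cells given 25 nM Silvestrol for 2 h and cells given the vehicle DMSO for 2 h. Each treatment was sequenced once at passage 3 and once at passage 4 of the cell line, so 4 of the 13 samples of the series entered the comparison, chosen by their titles and not by any measured value. MDA-MB-231 is an established human breast cancer cell line. No gene was altered in any group, and by their titles the Silvestrol and DMSO cells of a passage differ only in the compound. For the Silvestrol library of passage 3, one label gives the exposure as 1 h while its title and description give 2 h. It was used as a 2 h library. The same study sequenced footprints of 1 Silvestrol and 1 DMSO library at 1 h, from passage 3, which were kept out of the test and are given beside it. Messenger RNA was not used here, so a change in footprints carries the amount of an mRNA and its translation together, and in these bulk samples fewer cells of a kind and less RNA per cell cannot be told apart.

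Silvestrol is a plant natural product that blocks eIF4A, the RNA helicase of the cap-binding complex eIF4F. This complex binds the capped end of an mRNA, and eIF4A unwinds the 5′ untranslated region (5′ UTR) so that the small ribosomal subunit can scan to the start codon. Ribosome profiling sequences the short stretches of mRNA that ribosomes protect from nuclease, and the number of such footprints on a coding region follows how many ribosomes sit on it. Messages differ in how strongly they need eIF4A, and those of cell cycle, survival and signalling genes are well known for it.

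After 1 line per gene name was kept, the DMSO and Silvestrol libraries of passage 3 held 26057596 and 11960332 counted reads and those of passage 4 held 6365843 and 2621479, so the Silvestrol library was the shallower one in both passages. The 20 genes with most reads took 6.33 to 8.72% of a library. Markers of the cell line were as labelled: VIM had 7215 to 10653 CPM (footprint counts scaled to the total of the library) and CD44, AXL, EGFR, CAV1 and FN1 had at least 89.7 CPM in each library, while the epithelial and hormone receptor genes CDH1, ESR1, PGR and FOXA1 did not exceed 0.381 CPM. ERBB2, EPCAM and GATA3 lay between 3.95 and 19.2 CPM. SPARC, also listed as a marker of the line, reached only 2.67 CPM. The titles mark the passage 4 libraries br, which the authors define as biological replicate. The labels do not otherwise say how separate the cultures were. The p-values set each change against a spread between these 4 libraries that is pooled over genes.

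Of 10524 genes with a mean of at least 2 CPM, footprints of 2974 fell after 2 h Silvestrol and those of 2650 rose at an adjusted p under 0.05 (edgeR quasi-likelihood test with passage as a block, Benjamini-Hochberg adjustment), or 28.3% and 25.2% of the genes tested and 53.4% together. The larger changes were mostly falls. Footprints of 1573 genes (14.9%) fell at least 1.5-fold in each passage and those of 665 genes (6.32%) rose by that much, among the genes that passed the test. At 2-fold in each passage the counts were 649 and 57, and at 4-fold they were 56 and 1. The 1573 falling genes held 13.9% of the tested reads in each DMSO library and 6.19% and 6.33% in the Silvestrol libraries. The limit of 1.5-fold cut through a continuous range: RUNX1 fell 1.50062-fold in its weaker passage and PKIG 1.49969-fold, and RGS3 rose 1.50009-fold against 1.49999-fold for COMMD9. CPM values are relative to the reads of each library, so an equal loss over all genes would not appear in them.

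The passages agreed in direction for most genes. Across the 10524 genes the log2 change in passage 3 and in passage 4 correlated with a Pearson r of 0.774, and with 0.885 over the 6890 genes with a mean of at least 20 CPM. Genes are not independent replicates, and the 2 changes come from separate libraries. The spread of the changes was alike, with an SD of 0.666 in passage 3 and 0.686 in passage 4. Signs differed between passages in 17.6% of genes, and 62 of these passed the test. With passage as a block 1 residual degree of freedom was left per gene, so the spread was shared over all genes. The prior degrees of freedom were infinite at the median over genes, where a gene's own spread has no weight in its p. The very small p-values below rest on that pooled spread. Without the block the same test called 731 genes (6.95%) lower and 200 (1.9%) higher.

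**Figure D1:**
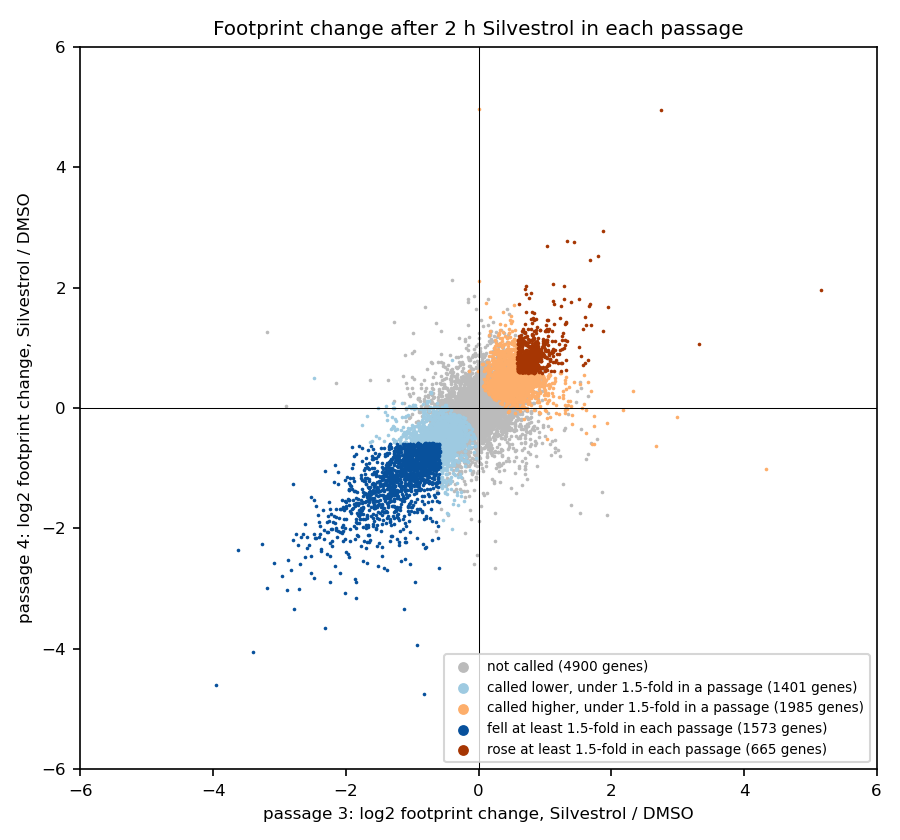
Each point is 1 of 10524 genes, with its log2 footprint change (Silvestrol over DMSO) in passage 3 on the x axis and in passage 4 on the y axis, coloured by call. The 1573 genes that fell and the 665 that rose at least 1.5-fold in each passage lie in the lower left and upper right corners.

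Among genes with a mean of at least 20 CPM, the 12 lowest changes were those of DCAF16, GSK3B, ZNF146, KIAA0754, TAOK1, FLNC, ARHGEF11, NCOA1, TLE1, EP300, ZNF148 and ARHGEF12. Their footprints fell between 4.25-fold and 9.59-fold in a passage, and the largest adjusted p among them was 8.63e-35. Without the block their adjusted p ranged from 0.0206 to 0.0284. All 12 were also below DMSO at 1 h. KIAA0754 lies within the MACF1 gene by RefSeq's synonyms, so its reads may belong to MACF1.

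DCAF16, a substrate receptor of a cullin ubiquitin ligase, had 53.3 and 41.0 CPM in DMSO at passages 3 and 4 and 5.68 and 5.04 CPM in Silvestrol, a log2 change of -3.18 ± 0.20 (SE). GSK3B, the kinase that marks β-catenin for destruction and restrains glycogen synthesis, went from 52.8 and 48.8 CPM to 6.97 and 5.82 CPM. TAOK1, a kinase upstream of stress-activated MAP kinases, went from 106 and 103 CPM to 13.3 and 14.7 CPM. In all 3 genes each Silvestrol value was far under both DMSO values and the libraries of a treatment lay close together.

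FLNC, which encodes the actin cross-linker filamin C, was the most abundant of the 12, with 825 and 513 CPM in DMSO and 113 and 88.8 CPM in Silvestrol. At 1 h it stood at 842 CPM in DMSO and 420 CPM in Silvestrol. EP300, the histone acetyltransferase p300, went from 131 and 123 CPM to 22.1 and 25.2 CPM, and NCOA1, a nuclear receptor coactivator, from 40.5 and 41.8 CPM to 5.85 and 9.70 CPM. The other coregulator of the 12, the Groucho family corepressor TLE1, had 50.0 and 46.7 CPM in DMSO against 7.83 and 10.9 CPM in Silvestrol. ARHGEF11 and ARHGEF12, both guanine nucleotide exchange factors, had log2 changes of -2.60 and -2.41.

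Under the same limits the 12 highest changes were those of EGR1, G0S24, ZFP36, NUAK2, FOS, KRT10, CEBPD, PDCD7, YOD1, ZC3H12A, KLF10 and CSRNP1, with folds from 1.74 to 31.1 in a passage and a largest adjusted p of 4.49e-11. Only 4 of them (KRT10, CEBPD, PDCD7 and YOD1) passed without the block, where the p of the 12 ranged from 0.0212 to 0.279. G0S24 and ZFP36 are names of 1 locus in RefSeq and stand on separate lines of the table. At 1 h 10 of the 12 were above DMSO, the others being ZC3H12A and CSRNP1. In all 12 the rise was larger in passage 4, and the DMSO level was lower in passage 4, by very little in KRT10.

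EGR1, a zinc finger factor induced within minutes by growth factors and stress, had 21.7 CPM in DMSO and 147 CPM in Silvestrol at passage 3, and 3.65 CPM and 119 CPM at passage 4. Its Silvestrol values were thus close to each other and its DMSO values were far apart. FOS, a partner of JUN in the AP-1 factor, went from 15.95 to 43.5 CPM and from 4.87 to 33.8 CPM. ZFP36, which binds AU-rich elements and speeds the decay of cytokine mRNAs, went from 23.9 to 83.3 CPM and from 10.2 to 59.7 CPM.

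NUAK2, a kinase of the AMPK family, rose from 41.5 to 133 CPM at passage 3 and from 14.7 to 81.9 CPM at passage 4. CEBPD, a C/EBP transcription factor of the acute phase response, rose from 30.8 to 88.1 CPM and from 22.7 to 80.3 CPM. KRT10, a type I keratin, differed from the rest in that its DMSO values were nearly the same in both passages, at 13.6 and 13.5 CPM against 44.1 and 45.4 CPM in Silvestrol, and that it had risen as far at 1 h, from 10.8 to 41.1 CPM. ZC3H12A, an RNase that cleaves inflammatory mRNAs, is the 1 gene of the 24 whose groups overlapped, since its 18.6 CPM in Silvestrol at passage 4 lay under its 20.4 CPM in DMSO at passage 3.

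**Figure D2:**
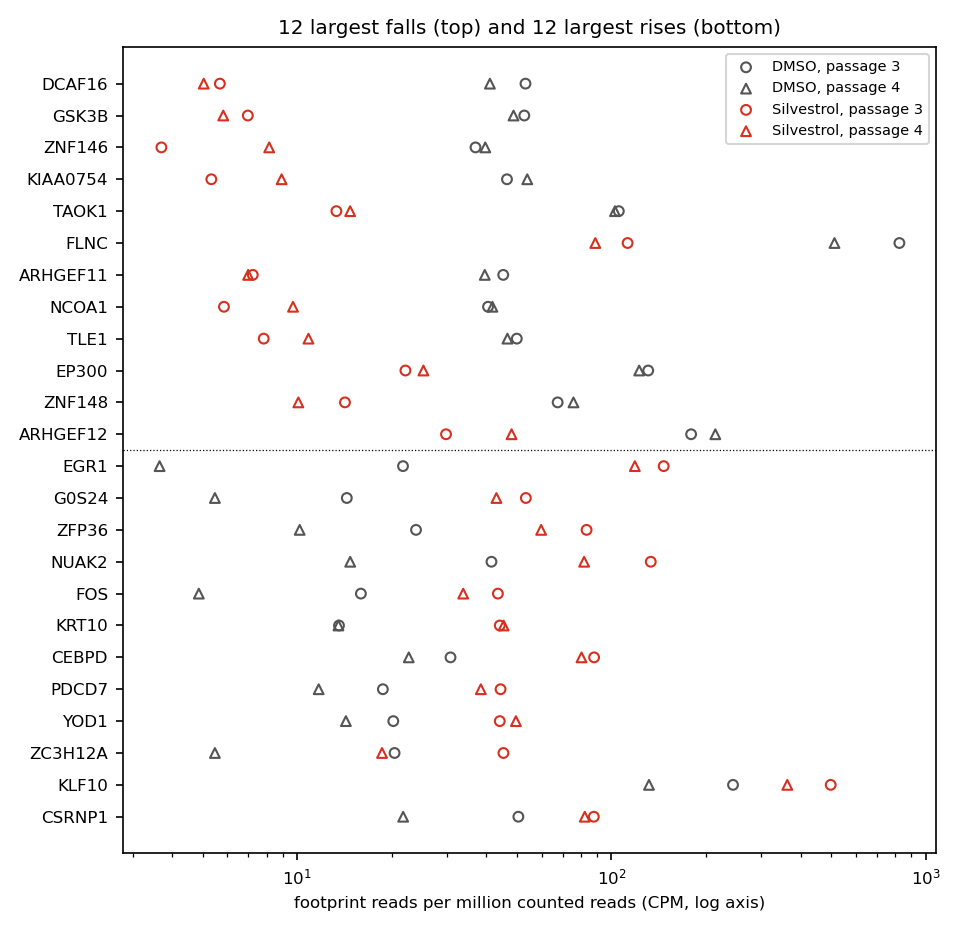
The x axis gives footprint CPM on a log scale for the 12 genes with the largest falls (above the dotted line) and the 12 with the largest rises (below it), with 1 point for each of the 4 libraries. DMSO points (grey) and Silvestrol points (red) stand apart in every gene except ZC3H12A, and the DMSO points of most rising genes are split by passage.

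Genes were next grouped into 42 lists by function, and 20 lists had more members that fell than rose, 21 had more that rose, and 1 had as many of each. Besides the largest changes of each list, some members are named for their role, chosen after their values were seen. For the Wnt, Notch, TGF-beta, MAP kinase, RAB, ubiquitin-conjugating, splicing factor and G1 cyclin lists and the energy, mitochondrial ribosome, histone and proteasome lists described below, the sign of the median was the same under all scalings and all libraries left out.

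**Figure D3:**
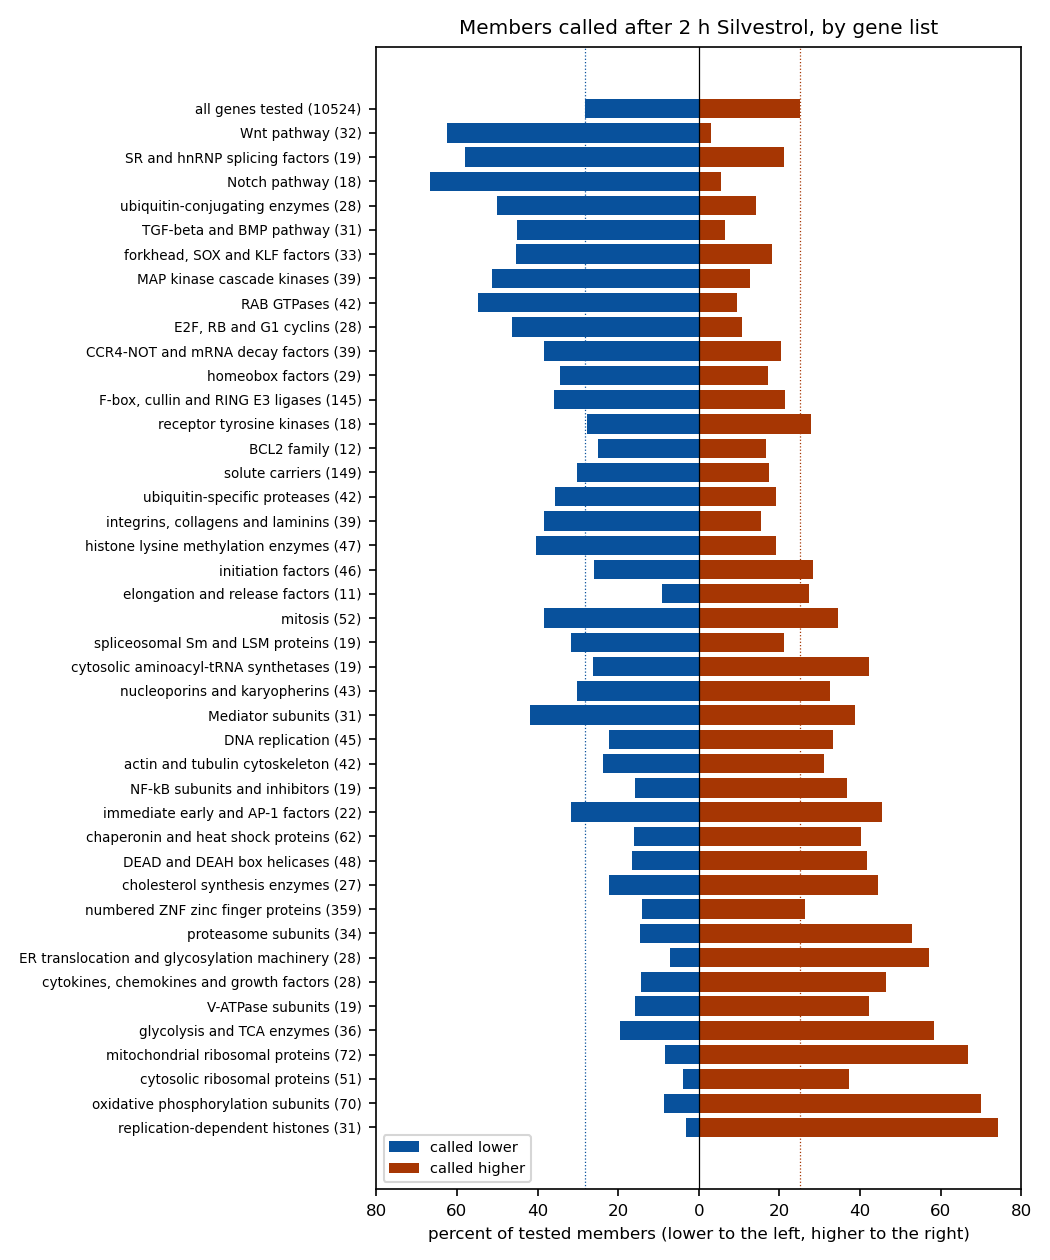
Bars give the percent of tested members of each list whose footprints were called lower (blue, to the left) or higher (red, to the right) after 2 h Silvestrol, with the number tested in brackets and lists ordered by median change. Dotted lines mark the 28.3% and 25.2% of all genes tested, and bars reach beyond the blue line for the Wnt and Notch pathways and beyond the red line for histones and oxidative phosphorylation.

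The Wnt pathway controls β-catenin, which carries the signal of Frizzled receptors to the nucleus. Of its 32 tested members 20 (62.5%) fell and 1 (3.1%) rose, against 28.3% and 25.2% of all genes. At least 1.5-fold in each passage 14 (43.75%) fell, against 14.9% of all genes. The median log2 change was -0.70 against 0.00 over all genes tested. Without the block 5 members fell and none rose. The median was -0.41 without DMSO replicate 2 against -0.69 in the same fit of all 4 libraries without the block. The receptors FZD2, FZD6 and FZD7, the cytoplasmic scaffolds DVL1, DVL3, AXIN1 and AXIN2, the casein kinases CSNK1E and CSNK1A1 and the nuclear partners BCL9, PYGO1 and LEF1 all fell at least 1.5-fold in each passage. CSNK1E had 123 and 74.3 CPM in DMSO and 37.6 and 27.9 CPM in Silvestrol. CTNNB1, which encodes β-catenin itself, had 1699 and 2027 CPM in DMSO and 1161 and 1128 CPM in Silvestrol. The 1 member that rose was TNKS, the tankyrase that destabilizes axin, with a log2 change of 0.63. APC, another part of the destruction complex, had a log2 change of 0.27 and did not pass the test.

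In the Notch pathway 12 of 18 members (66.7%) fell and 1 (5.56%) rose, against 28.3% and 25.2% of all genes. The median was -0.52, and 1 member passed without the block. NOTCH2 had 81.6 and 132 CPM in DMSO and 19.95 and 41.5 CPM in Silvestrol. The proteins that cut the receptor and release its intracellular domain fell with it, namely ADAM10 and the γ-secretase parts PSEN2 and PSENEN, all at least 1.5-fold in each passage. The γ-secretase subunit APH1A rose by 0.35 on the log2 scale and NCSTN had a change of 0.04 that did not pass. The ligand JAG1 also did not pass, at -0.09.

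In the TGF-beta and BMP list 14 of 31 members (45.2%) fell and 2 (6.45%) rose, against 28.3% and 25.2% of all genes. At least 1.5-fold in each passage 12 (38.7%) fell, against 14.9% of all genes. Without the block 7 members passed as lower. The falls covered the ligands TGFB1, TGFB2 and BMP4, the receptor BMPR2, the signal carriers SMAD1, SMAD3, SMAD4, SMAD5 and SMAD9, and the inhibitory SMAD7. SMURF2, a ubiquitin ligase for SMADs and receptors, went from 214 and 209 CPM to 56.1 and 64.0 CPM, and SMAD3 from 183 and 144 CPM to 61.1 and 68.3 CPM. The receptors TGFBR1 and TGFBR2 did not pass, at log2 changes of -0.09 and 0.05. The 2 members that rose, ID1 and ID3, are small nuclear proteins whose genes respond to BMP signals. ID1 went from 253 and 123 CPM to 518 and 308 CPM, and without the block neither passed.

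In the list of MAP kinase cascade kinases 20 of 39 (51.3%) fell and 5 (12.8%) rose, against 28.3% and 25.2% of all genes. MAP4K4, an upstream kinase of the JNK pathway, went from 221 and 268 CPM to 87.1 and 90.8 CPM. Among RAB GTPases, which direct vesicle traffic, 23 of 42 (54.8%) fell and 4 (9.52%) rose. RAB10 went from 199 and 218 CPM to 66.2 and 64.0 CPM. In these lists 8 and 7 members passed as lower without the block and none as higher. Their medians were -0.41 and -0.34, and that of the MAP kinase list was -0.60 without Silvestrol replicate 1. Of 18 receptor tyrosine kinases 5 (27.8%) fell and 5 (27.8%) rose, near the shares of all genes.

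Of 28 ubiquitin-conjugating enzymes, which carry activated ubiquitin to the ligases, 14 (50.0%) fell and 4 (14.3%) rose. UBE2H went from 60.4 and 69.3 CPM to 18.7 and 19.8 CPM. Of 145 F-box, cullin and RING E3 ligases 52 (35.9%) fell and 31 (21.4%) rose, against 28.3% and 25.2% of all genes. Of 19 SR and hnRNP splicing factors 11 (57.9%) fell and 4 (21.1%) rose. HNRNPD, which also binds AU-rich elements, went from 435 and 485 CPM to 159 and 142 CPM. Of 48 DEAD and DEAH box helicases 8 (16.7%) fell and 20 (41.7%) rose, with 2 and 2 without the block and a median that turned sign in limma on RPKM. In the mRNA decay list 15 of 39 (38.5%) fell and 8 (20.5%) rose, with 5 and 1 without the block. CNOT1, the scaffold of the CCR4-NOT deadenylase, had 329 and 350 CPM in DMSO against 73.4 and 92.7 CPM in Silvestrol, while the exonuclease XRN2 rose by 0.79 on the log2 scale.

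In the list of E2F, RB and G1 cyclins 13 of 28 (46.4%) fell and 3 (10.7%) rose, against 28.3% and 25.2% of all genes. None rose 1.5-fold in each passage, against 6.32% of all genes, and 3 passed as lower without the block. The G1 kinase CDK6 went from 115 and 107 CPM to 34.3 and 33.8 CPM and its partner CCND1, cyclin D1, from 1097 and 1120 CPM to 393 and 507 CPM, whereas CCND3 rose by 0.29 on the log2 scale. Of 52 mitosis genes 20 (38.5%) fell and 18 (34.6%) rose, both above the shares of all genes, with 5 and 0 without the block. Their median was 0.04, and its sign turned under other scalings. TPX2, which activates Aurora A on the spindle, went from 1132 and 935 CPM to 366 and 346 CPM, while the kinetochore motor CENPE rose by 0.57. In DNA replication 10 of 45 (22.2%) fell and 15 (33.3%) rose, against 28.3% and 25.2% of all genes, and 2 and 1 passed without the block. GINS1 of the replicative helicase had a log2 change of -1.36 and the ribonucleotide reductase subunit RRM2 one of 0.80.

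Among the 12 tested members of the BCL2 family, which decide between survival and apoptosis, 3 (25.0%) fell and 2 (16.7%) rose, against 28.3% and 25.2% of all genes. BCL2L1, which encodes the survival protein BCL-XL, went from 345 and 331 CPM to 127 and 150 CPM. MCL1, another survival protein, moved the opposite way, from 518 and 371 CPM to 853 and 766 CPM. BCL2L1 passed without the block, with an adjusted p of 0.0214, and MCL1 did not, at 0.0569. Another member that fell was BID, from 76.3 and 64.8 CPM to 42.1 and 35.3 CPM, a log2 change of -0.87. PMAIP1, the death-promoting NOXA, rose by 0.57 on the log2 scale and BAX and BAD did not pass.

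Lists of energy enzymes, mitochondrial ribosomal proteins and proteasome subunits had medians above that of all genes. The cytokine list described below, at 0.33, stood above the proteasome list, at 0.26. Of 70 tested subunits of oxidative phosphorylation 49 (70.0%) rose and 6 (8.57%) fell, against 25.2% and 28.3% of all genes. At least 1.5-fold in each passage 17 (24.3%) rose, against 6.32% of all genes, and the median was 0.55. For 23 of the 70, less than 0.5 of the coding region was counted. The authors left out positions with reads that align elsewhere and positions under several transcripts, and which of these applied was not tested. Among the other 47 subunits 36 rose and 5 fell. NDUFV3 of complex I went from 126 and 104 CPM to 207 and 216 CPM, and COX5B of complex IV from 185 and 177 CPM to 343 and 309 CPM. The 6 subunits that fell included NDUFC2, NDUFA1 and NDUFA8 of complex I, with log2 changes of -0.80, -0.74 and -0.59. Without the block 10 subunits rose and 1 fell.

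Mitochondrial ribosomal proteins, which translate the few messages of the mitochondrial genome, moved the same way, with 48 of 72 (66.7%) higher and 6 (8.33%) lower. Over all genes 25.2% were higher and 28.3% lower. The median of the list was 0.39, and without the block 10 members rose and 1 fell. MRPS27 went from 226 and 204 CPM to 394 and 398 CPM, while MRPL24 fell from 233 and 215 CPM to 141 and 113 CPM. Of 36 enzymes of glycolysis and the TCA cycle 21 (58.3%) rose and 7 (19.4%) fell, with 5 and 1 without the block. GAPDH counted among the 21 risers although it fell in passage 4. SUCLG1, of succinyl-CoA synthetase, went from 248 and 210 CPM to 444 and 390 CPM. Of 34 proteasome subunits 18 (52.9%) rose and 5 (14.7%) fell, with 3 and 1 without the block. PSMB5, a catalytic subunit, rose by 0.74 and PSMD14, the deubiquitinase of the lid, fell by 0.81 on the log2 scale.

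Replication-dependent histones had the highest median of the 42 lists, 0.60. Of 31 members 23 (74.2%) were higher and 1 (3.23%) lower, against 25.2% and 28.3% of all genes. Without the block 3 histones were higher and 1 lower. Their messages are short and close to each other in sequence, and 19 of the 31 had less than 0.5 of their coding region counted. Of the 12 others 6 rose and 1 fell, with a median of 0.29, so the rank of the list rests on members counted in small part. The linker histone HIST1H1E had 3418 and 2472 CPM in DMSO and 5691 and 5182 CPM in Silvestrol. For cytosolic ribosomal proteins, 48 of 51 were counted over less than 0.5 of their length and the medians of the passages differed in sign, at 0.70 and -0.03, so the 19 members higher and 2 lower give no direction for the family.

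Among 46 initiation factors, the drug's own target included, 12 (26.1%) fell and 13 (28.3%) rose, near the 28.3% and 25.2% of all genes, with a median of 0.01 whose sign also turned under other scalings. EIF4A1 went from 27.2 to 52.0 CPM at passage 3 and from 62.5 to 74.1 CPM at passage 4, and EIF4A2 from 41.7 to 84.7 CPM and from 60.5 to 109 CPM. In EIF4A1 the groups overlapped, since Silvestrol at passage 3 lay under DMSO at passage 4. Both were counted over less than 0.5 of their coding region, and neither passed without the block. EIF4A3, the related helicase of the exon junction complex, fell from 588 and 505 CPM to 319 and 291 CPM. The scaffold EIF4G1 had a log2 change of -0.16 ± 0.08 (SE) and did not pass the test. PDCD4, a protein that binds and inhibits eIF4A, went from 170 and 168 CPM to 50.6 and 42.7 CPM.

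Immediate early genes, whose transcription answers a stimulus without new protein synthesis, and other AP-1 factors split within the list. Of 22 tested members 10 (45.5%) rose and 7 (31.8%) fell, MYC among those that fell on reads of 1 passage. Over all genes 25.2% rose and 28.3% fell, so the share that fell was near that of all genes. At least 1.5-fold in each passage 7 (31.8%) rose, against 6.32% of all genes. These were EGR1, FOS, KLF10, IER2, ATF3, KLF6 and KLF2. FOSL2 fell at least 1.5-fold in each passage, from 181 and 113 CPM to 46.5 and 44.6 CPM. JUN had 247 CPM in DMSO and 128 CPM in Silvestrol at passage 3 and 142 CPM in both at passage 4, so its call rests on passage 3. Without the block only FOSL2 fell and only 1 member rose.

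MYC showed a fault of the table. Its kept line held 14752 reads in DMSO and 4012 in Silvestrol at passage 3 and no read at passage 4, where the reads stood on another line of the same name. With reads summed over both lines, MYC went from 565 to 335 CPM at passage 3 and from 364 to 431 CPM at passage 4, a log2 change of -0.22 ± 0.09 (SE, adjusted p = 0.0321 in edgeR) in which the passages have opposite signs. In 121 names the kept line had reads in 1 passage only.

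**Figure D4:**
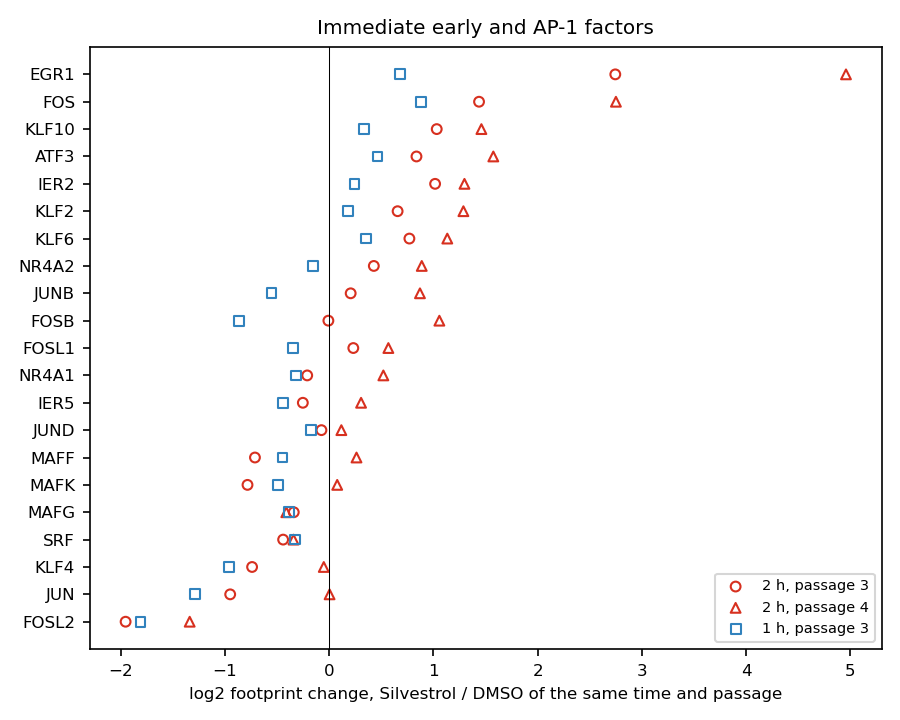
Points give the log2 footprint change of 21 immediate early and AP-1 factors (MYC left out) on the x axis, for 2 h Silvestrol at passage 3 (circles) and passage 4 (triangles) and for 1 h at passage 3 (squares). The passage 4 point lies to the right of the passage 3 point in 20 of 21 genes, and 7 genes are above 0 at 1 h, 10 at 2 h in passage 3 and 17 at 2 h in passage 4.

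Inflammatory regulators held members of both directions. Of 19 NF-kB subunits and inhibitors 7 (36.8%) rose and 3 (15.8%) fell, against 25.2% and 28.3% of all genes. None of the 7 passed without the block. NFKBIA, the inhibitor that holds NF-kB in the cytoplasm, went from 276 and 134 CPM to 488 and 272 CPM, so that Silvestrol at passage 4 lay just under DMSO at passage 3, while at 1 h it stood at 198 CPM in DMSO and 185 CPM in Silvestrol. BIRC2, a ubiquitin ligase that limits non-canonical NF-kB signalling, fell from 153 and 103 CPM to 48.4 and 51.2 CPM. Of 28 cytokines, chemokines and growth factors 13 (46.4%) rose and 4 (14.3%) fell. Their median changed sign without the DMSO library of passage 4. IL6 went from 32.7 and 29.0 CPM to 67.4 and 57.0 CPM, and it was the 1 riser to pass without the block.

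The 1 h libraries gave a separate measurement with their own control and no test. Genes that fell at least 1.5-fold in each passage at 2 h had a median log2 change of -0.69 at 1 h against -1.06 at 2 h, and 1547 of the 1573 (98.3%) were below DMSO. Genes that rose by that much had a median of 0.43 at 1 h against 0.79 at 2 h, and 627 of 665 (94.3%) were above DMSO. Genes not called at 2 h had a median of 0.03 at 1 h. Across all genes the change at 1 h correlated with the change at passage 3 with an r of 0.772 and at passage 4 with 0.687. There is 1 library per treatment at 1 h.

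Falling and rising genes differed in the length of their 5′ UTR, which the calls did not use. Lengths came from 1 annotated transcript per gene (GENCODE on GRCh37) for 10335 of the 10524 genes. The median 5′ UTR was 317 nt for the 1546 measured genes that fell at least 1.5-fold in each passage, 202 nt for the other genes called lower, 129 nt for genes not called, 65 nt for the other genes called higher and 48 nt for the 653 that rose. The interquartile range of the falling genes ran from 203 to 494 nt and that of the rising genes from 24 to 89 nt, and these ranges did not overlap. Coding regions differed less, with medians of 1623 nt in falling and 1362 nt in rising genes. GC content of the 5′ UTR had medians of 65.6% and 68.3%.

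Read from the length, 0.751% of the 1865 genes with a 5′ UTR of at most 50 nt fell at least 1.5-fold in each passage and 18.0% rose. Over 400 nt, 571 of 1112 genes (51.3%) fell and 0.540% rose. The median log2 change went from 0.43 in the shortest class through 0.21, -0.05 and -0.36 to -0.80 in the longest, and the order was the same in each passage and at 1 h. Of the 12 named falling genes 10 had a 5′ UTR over 400 nt, and of the 12 rising genes EGR1 alone had one over 200 nt, of 283 nt.

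**Figure D5:**
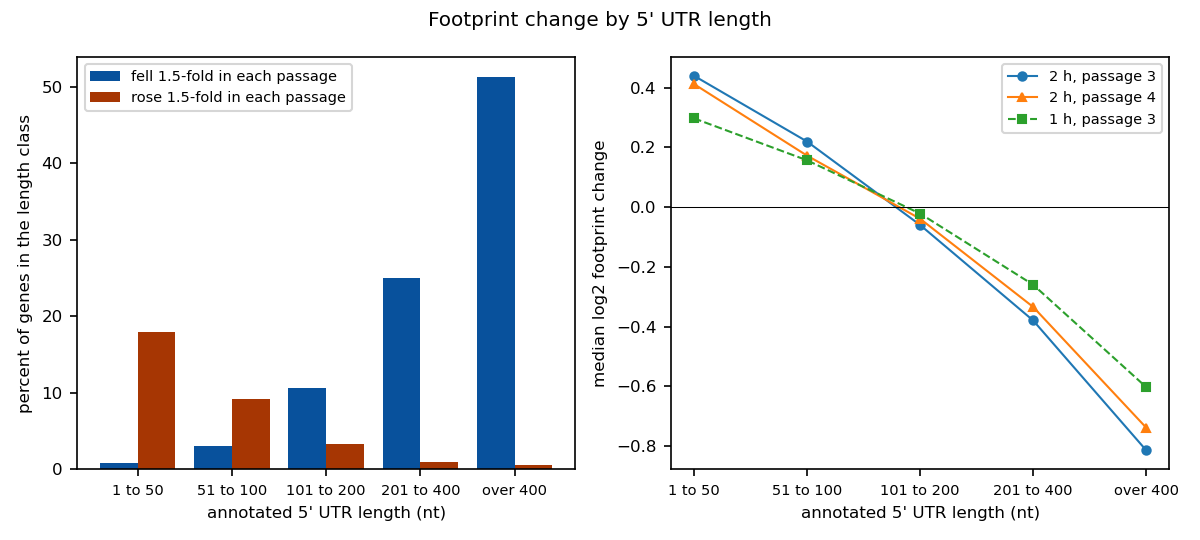
The left panel gives the percent of genes in each class of annotated 5′ UTR length that fell (blue) or rose (red) at least 1.5-fold in each passage, and the right panel the median log2 footprint change of the class at 2 h in each passage and at 1 h. The share falling climbs from 0.751% to 51.3% with length while the share rising drops from 18.0% to 0.540%, and the 3 lines fall together.

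A repeat of 4 CGG units was looked up in the same 5′ UTRs because such GC-rich runs can fold into stable structures. The letters searched were CGGCGGCGGCGG on the mRNA strand, and separately their complement CCGCCGCCGCCG, which 25 of the 5′ UTRs held beside the first. The repeat stood in 499 of 10335 5′ UTRs (4.83%), in 157 of 1546 falling genes (10.2%) and in 4 of 653 rising genes (0.613%). The complement stood in 2.91% of all and in 5.37% of falling genes. Longer 5′ UTRs hold more of any motif. Among genes with over 200 and up to 400 nt, 10.9% of genes that fell at least 1.5-fold in each passage, 11.98% of the other genes called lower and 8.84% of all held the repeat, and the median log2 change was -0.47 for the 210 genes with it and -0.35 for the 2165 without. Above 400 nt the medians were -0.98 for 121 genes and -0.78 for 991. A match of letters is a description of the sequence and not a measured site.

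The 3 genes with the largest falls among well-counted genes that hold the repeat in 1 exon are shown to place it in the leader. Each line gives 30 bases of the mRNA strand (GENCODE transcripts on GRCh37, hg19) with the first 4 CGG units in capitals, and in QKI and CPEB4 the run of units goes on in lower case. The stretches lie at chr9:84304416-84304445 on the minus strand for TLE1, chr6:163836167-163836196 on the plus strand for QKI and chr5:173315410-173315439 on the plus strand for CPEB4.
TLE1: aggcgcgggCGGCGGCGGCGGtgggagcgg
QKI: cctcctctcCGGCGGCGGCGGcggcggcgg
CPEB4: aggcggtggCGGCGGCGGCGGcggcagcag

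Along the spliced mRNA the TLE1 repeat begins 1281 bases before the start codon in a 5′ UTR of 1307 nt, the QKI repeat 50 bases before it in 476 nt, and the CPEB4 repeat 1318 bases before it in 1385 nt. QKI, an RNA-binding protein of splicing and mRNA stability, had 188 and 145 CPM in DMSO and 35.3 and 32.6 CPM in Silvestrol. CPEB4, which binds the cytoplasmic polyadenylation element, had 47.5 and 40.9 CPM against 9.63 and 10.9 CPM. In both genes all Silvestrol values lay far under the DMSO values.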

How the data were processed

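The starting point was the deposited table of footprint read counts. Before counting, the authors trimmed linkers, discarded rRNA, aligned with Bowtie to hg19 and UCSC canonical transcripts with at most 2 mismatches, and counted uniquely mapped footprints at the P-site. The authors also deposited RPKM values, computed over positions without shared reads; these served for an alternative and for the counted length. Of 38897 lines 25758 were distinct. For each of 24872 names the line with most reads was kept, and 28 names altered to numbers by a spreadsheet stayed as they were. Names with a mean CPM of at least 2 were tested in edgeR 4.0.16 (R 4.3.3) with TMM scaling, passage as a block and Benjamini-Hochberg adjustment. CPM values are scaled by TMM except for markers and for MYC reads summed over lines.

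The passage numbers pair the libraries by the labels, and libraries of 1 passage deviated together from the means of their treatments (r = 0.826). The common dispersion was 0.00681 with the block and 0.0665 without it. In simulated data of 10524 genes the block recovered 174 of 200 genes changed by 1 on the log2 scale, with 9 false calls. No genes were recovered without it. The simulated counts were drawn with separate levels per passage and a dispersion estimated with the block. They favour the block by design and cannot choose between the fits. In the measured data the fit without the block called 731 genes lower and 200 higher. RNA amounts were not analysed here, some results are not reported here, and no SE or p is given for lists.

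Members and lists were chosen with earlier results of these data known. The genes named first are the 12 lowest and 12 highest log2 changes among called genes with the same direction in each passage, a mean of at least 20 CPM and a counted length differing by no more than 1.5 times between libraries. In lists, up to 3 called members per direction with the largest change were eligible. 5′ UTRs came from GENCODE v44 lifted to GRCh37, with 10345 of 10524 names matched, 1206 of them through RefSeq synonyms. Alternatives were the fit without the block, DESeq2 1.42.0, other scalings and filters, an offset for counted length, limma 3.58.1 on log2(RPKM + 0.5), and each library left out.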

Additional observations from a re-analysis of the deposited data

Results flagged for a closer look

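In 3 gene lists the median log2 change had opposite signs in the passages, and the difference was not tested. For cytosolic ribosomal proteins passage 4 minus passage 3 was -0.72, with 48 of 51 members counted over less than 0.5 of their coding region. For spliceosomal Sm and LSM proteins it was -0.38, from 0.09 in passage 3 to -0.29 in passage 4. For immediate early and AP-1 factors it was 0.59, from -0.04 to 0.54, and the median at 1 h in passage 3 was -0.34. At least 1.5-fold changes in opposite directions were seen in 50 genes, of which GAPDH and HIST1H2BD had a mean of at least 20 CPM. HIST1H2BD, a histone H2B, changed by 1.87 in passage 3 and -1.39 in passage 4 on the log2 scale. GAPDH, the glycolytic enzyme, had 4.47 CPM in DMSO and 29.4 CPM in Silvestrol at passage 3 against 33.6 and 21.7 CPM at passage 4, a difference of -3.30 on the log2 scale that was not tested. Its counted share of the coding region was 0.108.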

How the results depend on the processing

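Without the replicate block, the edgeR test called 731 genes lower and 200 higher, and 719 and 178 of them changed at least 1.5-fold in each passage, against 2974, 2650, 1573 and 665 with it. Of the 24 named genes 16 passed without the block. DESeq2 called 1699 lower and 1716 higher. limma on log2 RPKM called 1312 higher, 277 of them at least 1.5-fold in each passage, and moved the median of all genes by -0.13. Calls that were higher made up 47.1% of calls in edgeR with TMM, 21.5% without the block and 28.8% in limma. With 1 library left out and no block, calls ranged from 0 to 655 lower and from 0 to 90 higher. The counts were 0 in edgeR without Silvestrol replicate 1, where 1155 genes were lower and 424 higher at an unadjusted p under 0.05, and without Silvestrol replicate 2, where they were 1241 and 633. In those fits the lone library of a group is assumed to vary like the other group. No fall or rise of the 24 named genes changed direction under any alternative. Medians of 11 lists changed sign in limma on RPKM, and leaving out 1 library turned the sign of others, among them cytosolic ribosomal proteins and ER translocation genes (without DMSO replicate 1) and immediate early genes, cytokines and solute carriers (without DMSO replicate 2). After the data were seen, summing lines of a name, leaving out names with several lines and keeping counted lengths within 1.5 times were added, and these called 2987, 2943 and 2886 genes lower. With 2621479 counted reads the Silvestrol library of passage 4 limits what can be seen in weakly expressed genes.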

Other observations

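Numbered ZNF zinc finger proteins, a large family of mostly KRAB-type transcriptional repressors, had 95 of 359 members (26.5%) higher, near the 25.2% of all genes, and 51 (14.2%) lower against 28.3%, with a median log2 change of 0.23. At least 1.5-fold in each passage, 34 members (9.47%) fell against 14.9% of all genes and 44 (12.3%) rose against 6.32%, and without the block 7 fell and 3 rose.

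Of 43 nucleoporins and karyopherins 13 (30.2%) were lower and 14 (32.6%) higher, near the shares of all genes. XPO1, the main export receptor for proteins with a leucine-rich signal, went from 686 and 667 CPM in DMSO to 148 and 164 CPM in Silvestrol. Of 149 solute carriers 45 (30.2%) fell, near the share of all genes, and 26 (17.4%) rose.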
